A study of Saccharomyces cerevisiae with 18 samples.

Results

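A set of 10 genes encoding the main cytosolic and mitochondrial chaperones of budding yeast was followed through 18 RNA libraries. The genes were taken by systematic name from the 5830 genes in the expression table, and all of them were measured in every library and passed the filter on low values. The cytosolic Hsp70 genes were SSA1 (YAL005C), SSA2 (YLL024C), SSA3 (YBL075C) and SSA4 (YER103W), and the cytosolic Hsp90 genes were HSC82 (YMR186W) and HSP82 (YPL240C). The mitochondrial genes were SSC1 (YJR045C), HSP60 (YLR259C), HSP10 (YOR020C) and HSP78 (YDR258C). The reference annotation pairs each of these systematic names with the symbol used here.

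The study asked how the yeast chromatin remodeler ISW1a, which contains the ATPase Isw1 and the subunit Ioc3, acts in cells with and without Yaf9, a subunit shared by the NuA4 acetyltransferase and the SWR1 remodeler. The 6 strains were ioc3ΔcHLB yaf9Δ, ioc3Δ yaf9Δ, yaf9Δ, ioc3ΔcHLB, ioc3Δ and wild type, and each was grown as 3 independent cultures in YPD, a rich glucose medium, to the same range of optical density. In ioc3Δ the IOC3 gene is deleted, in ioc3ΔcHLB a stretch of Ioc3 within its HLB domain is removed while the rest of the gene is kept, and yaf9Δ lacks YAF9. All strains share the BY4742 background, and the labels list a FLAG epitope tag for every one of them, wild type included. The labels give no heat shock or other treatment and no second isolate of any strain, so each genotype rests on cultures of 1 strain.

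Chaperones bind unfolded or partly folded proteins and use cycles of ATP binding and hydrolysis to let them fold, assemble or cross membranes. In the yeast cytosol the Ssa proteins are the general Hsp70 chaperones, helped by Hsp40 partners and nucleotide exchange factors, and they pass some clients to the Hsp90 proteins Hsc82 and Hsp82. SSA1, SSA2 and HSC82 are expressed in unstressed cells, whereas SSA3, SSA4 and HSP82 are best known as stress-inducible genes whose transcription depends on the heat shock factor Hsf1 and, for several of them, on the stress factors Msn2 and Msn4. Inside mitochondria Ssc1 is the Hsp70 that pulls imported proteins across the inner membrane, Hsp60 and Hsp10 form the chaperonin chamber and its lid, and Hsp78 is a ClpB-type disaggregase.

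Because several of these genes are textbook heat shock factor targets, the 500 bases before each start codon were searched for a heat shock element of 3 alternating units, that is TTCNNGAA followed after 2 further bases by TTC, read on either strand. The element was found before 5 of the 10 genes, SSA1, SSA2, HSP60, HSP10 and HSP78, and before 87 of 5631 genes (1.55%) with an annotated start. The windows of 60 bases around the matches are printed 5′ to 3′ on the coding strand, with the element in capitals, to show which members carry it and how the letters differ. Coordinates and sequence are from the RefSeq R64 assembly, which is the sacCer3 release to which the reads were mapped.
SSA1 (chrI:141757-141816, minus strand): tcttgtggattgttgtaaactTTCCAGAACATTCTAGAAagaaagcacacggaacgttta
SSA1 (chrI:141657-141716, minus strand): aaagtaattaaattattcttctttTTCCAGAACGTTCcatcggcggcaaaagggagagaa
SSA2 (chrXII:97683-97742, minus strand): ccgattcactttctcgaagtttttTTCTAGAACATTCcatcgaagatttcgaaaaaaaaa
HSP60 (chrXII:665177-665236, minus strand): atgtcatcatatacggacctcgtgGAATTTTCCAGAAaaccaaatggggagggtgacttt
HSP10 (chrXV:370969-371028, minus strand): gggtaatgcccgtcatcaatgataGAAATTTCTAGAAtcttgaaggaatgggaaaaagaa
HSP78 (chrIV:974452-974511, minus strand): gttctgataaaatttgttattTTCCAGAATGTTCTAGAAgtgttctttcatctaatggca
The longer capital runs before SSA1 and HSP78 hold 2 overlapping matches each. The letters of the element began 364, 359 and 261 bases before the SSA1 start codon, 233 before SSA2, 210 before HSP60, 160 before HSP10 and 247 and 242 before HSP78. The 2-unit form TTCNNGAA, which any 3-unit match also contains, was present before SSA4, HSP82 and HSC82 as well and before 21.5% of all genes. Neither form was found before SSA3 or SSC1. The stress response element AGGGG was found on either strand before SSA1, SSA4, HSP82, SSC1 and HSP78 and before 34.4% of all genes. A match describes the letters only and says nothing of whether a factor was bound in these cells.

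The coding sequences of 2 pairs are nearly alike, which limits how reads of 76 bases can be told apart. SSA1 and SSA2 were 96.8% identical over 1920 aligned bases, with an identical run of 383 bases. Of all 76-base windows, 51.7% of those in SSA1 and 51.9% of those in SSA2 had an exact copy in the other gene. HSP82 and HSC82 were 92.4% identical, and 2.09% of HSP82 windows and 2.1% of HSC82 windows had an exact copy in the partner. One window of each pair is printed, the first identical and the second with the 5 differing bases in capitals.
SSA1 (chrI:140384-140459, minus strand): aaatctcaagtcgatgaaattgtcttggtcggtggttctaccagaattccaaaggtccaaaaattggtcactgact
SSA2 (chrXII:96438-96513, minus strand): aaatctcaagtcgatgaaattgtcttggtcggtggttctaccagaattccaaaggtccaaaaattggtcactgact
HSP82 (chrXVI:97405-97480, minus strand): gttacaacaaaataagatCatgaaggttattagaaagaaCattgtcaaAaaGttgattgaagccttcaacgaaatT
HSC82 (chrXIII:633488-633563, plus strand): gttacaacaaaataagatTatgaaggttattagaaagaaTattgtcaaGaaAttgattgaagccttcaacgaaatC
SSA1 and SSA2 values are therefore uncertain one against the other, because how the counting treated reads that fit both genes is not given in the sources used here. SSA3 and SSA4, at 77.6% identity, shared no 76-base window with each other or with SSA1 or SSA2, and no annotated gene overlapped any of the 10.

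The libraries held 5145170 to 10192972 reads, so that the least expressed member, SSA4, rested on 110 to 450 reads per library. IOC3 had 2 reads over the 3 ioc3Δ libraries, against 1426 in wild type, and 1 read in ioc3Δ yaf9Δ, against 1169 in yaf9Δ. YAF9 had 3 reads in yaf9Δ, against 803 in wild type, and none in ioc3Δ yaf9Δ or ioc3ΔcHLB yaf9Δ, against 815 in ioc3Δ and 656 in ioc3ΔcHLB. Counts per gene cannot check the cHLB truncation. In 4 strains 1 library stood apart by the chi-square per degree of freedom of read counts between cultures. The values were 29.1 and 32 between ioc3ΔcHLB yaf9Δ 1 and the other cultures, against 4.23 between those, 34.2 and 40.1 for ioc3Δ yaf9Δ 3, against 11.1, 34.4 and 44.8 for ioc3ΔcHLB 3, against 19.6, and 50.3 and 56.5 for wild type 2, against 14.9. The pairs gave 2.76 to 7.53 within yaf9Δ and 23.3 to 42.3 within ioc3Δ. Of the member calls below, only that of HSP60 in ioc3Δ yaf9Δ against wild type was lost without ioc3Δ yaf9Δ 3. None was lost without ioc3ΔcHLB yaf9Δ 1. Leaving out these libraries in turn added calls for SSA1, HSP78 and HSP82 that are given with each gene. Without wild type 2, calls against wild type were lost for HSP60 in ioc3Δ and for HSP60, SSC1 and SSA2 in ioc3Δ yaf9Δ. The SSA4 call in ioc3ΔcHLB yaf9Δ against wild type was lost too. Without ioc3ΔcHLB 3, the HSP10 call in ioc3ΔcHLB against ioc3Δ was lost. Values are CPM, read counts scaled to each library's effective total, so they are relative levels, and in bulk samples fewer cells of a kind and less RNA per cell cannot be told apart. A gene was called where limma's adjusted p was under 0.1 and the change at least 1.5-fold, which is 0.58 on the log2 scale. Fold changes are log2 of CPM + 1 with a standard error (SE), adjusted p-values are from limma throughout, and comparisons that share a strain are not independent of each other.

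Together the 10 genes took 0.496% to 1.1% of a library's CPM. Per kilobase of coding sequence, HSP10 had the highest level, with 1640 CPM per kb averaged over the 18 libraries, followed by SSA2 with 914, HSC82 with 723, SSC1 with 691 and HSP60 with 599. SSA1 averaged 179 CPM per kb and HSP82 64.1. The SSA1 and SSA2 levels would be too low against other genes if reads that fit both were not counted, which is not given. HSP78, SSA3 and SSA4 were the lowest, with 18.8, 16.2 and 15.7 CPM per kb, so SSA1, SSA2 and HSC82, known for basal expression, lay above SSA3, SSA4 and HSP82, known for stress induction. The members also differed in how much cultures of a strain varied. The median SD of log2(CPM + 1) within a strain was 0.72 for HSP82 and 0.58 for HSP10, against 0.09 for SSA3 and 0.15 for the median gene of the 5786 tested. Over single libraries SSA1 spanned 7.36-fold, HSP10 5.79-fold and HSP82 5.47-fold, against 1.4-fold for SSA3.

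**Figure D1:**
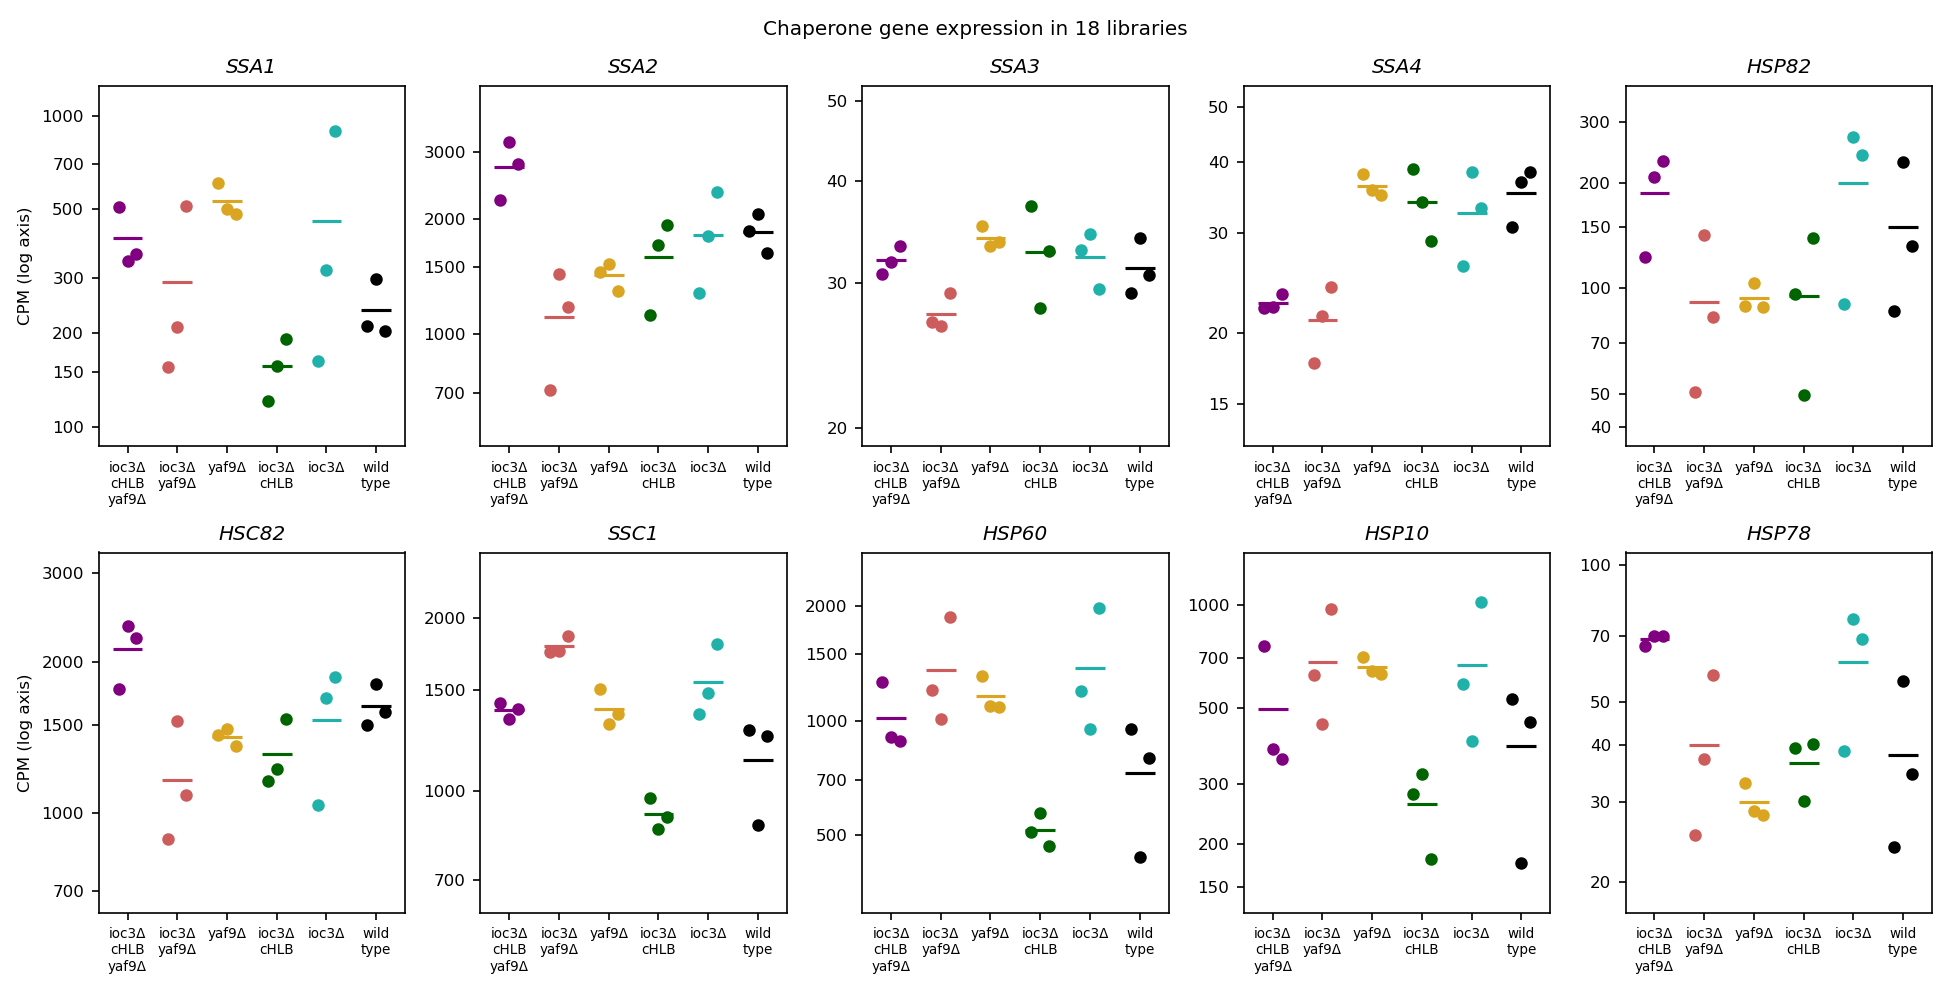
Expression of each chaperone gene in CPM (log axis) in the 18 libraries, with a panel per gene, a point per library and a bar at the mean of the 3 libraries of a strain. SSA4 lies between 17.7 and 24.1 CPM in the 6 libraries of both double mutants and between 26.2 and 38.9 CPM in the other 12. The SSC1, HSP60 and HSP10 panels have their lowest mean in ioc3ΔcHLB, whose libraries overlap those of wild type in each.

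Calls among the chaperone genes were few and depended on the strain pair. In ioc3ΔcHLB yaf9Δ against yaf9Δ, 3 of 10 members were called, HSP78 and SSA2 higher and SSA4 lower, where 4.63% of all genes were called, and 6 of 10 members did not overlap between the groups, where 31.9% of all genes did not. In ioc3Δ yaf9Δ against yaf9Δ only SSA4 was called, and it was lower, where 9.7% of all genes were called and 6.17% were called lower, and 3 members did not overlap (42.8% of all genes). In yaf9Δ against wild type limma called 0 members, where 7.52% of all genes were called, although 4 members had an unadjusted p under 0.05 and 6 did not overlap (40.3% of all genes). edgeR called 0 of them and DESeq2 1, HSP60. Over all genes tested, 1515 of 5786 had a limma unadjusted p under 0.05 there.

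In ioc3ΔcHLB against wild type limma, edgeR and DESeq2 each called 0 members, where limma called 0.346% of all genes. There 1 member, SSC1, had a limma unadjusted p under 0.05, as did 330 of 5786 genes tested. In ioc3Δ against wild type 1 member was called, HSP60, which was higher, where 12.2% of all genes were called and 9.04% were called higher, and 2 members did not overlap (37.3% of all genes). With the replicate number as a block, which treats same-numbered cultures as paired though they were not shown to be, 2 members were called, HSP60 and HSP78. In ioc3Δ yaf9Δ against wild type 4 members were called, HSP60 and SSC1 higher and SSA2 and SSA4 lower, where 12.3% of all genes were called. In ioc3ΔcHLB yaf9Δ against wild type 2 were called, HSP78 higher and SSA4 lower, where 8.87% of all genes were called. Members without overlap numbered 1 in ioc3ΔcHLB (9.11% of all genes), 4 in ioc3Δ yaf9Δ (32.5%) and 5 in ioc3ΔcHLB yaf9Δ (28.6%), each against wild type.

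The IOC3 alleles were also set against each other. In ioc3ΔcHLB against ioc3Δ 4 members were called, SSC1, HSP60, HSP10 and SSA1, all lower, where 9.99% of all genes were called and 7.57% were called lower. In ioc3ΔcHLB yaf9Δ against ioc3Δ yaf9Δ 2 members were called, SSA2 and HSC82, both higher, where 4.8% of all genes were called and 2.04% were called higher. Members without overlap numbered 3 in the first comparison (31.2% of all genes) and 5 in the second (22.1%). The median log2 change of the 10 members was -0.72 and 0.42 in these comparisons, against -0.01 and 0.00 over all genes tested. In the first comparison the 4 mitochondrial members had a median of -1.02 and the 6 cytosolic members a median of -0.19. In the second comparison all 6 cytosolic members had positive values, with a median of 0.76, and the mitochondrial members had a median of -0.38.

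**Figure D2:**
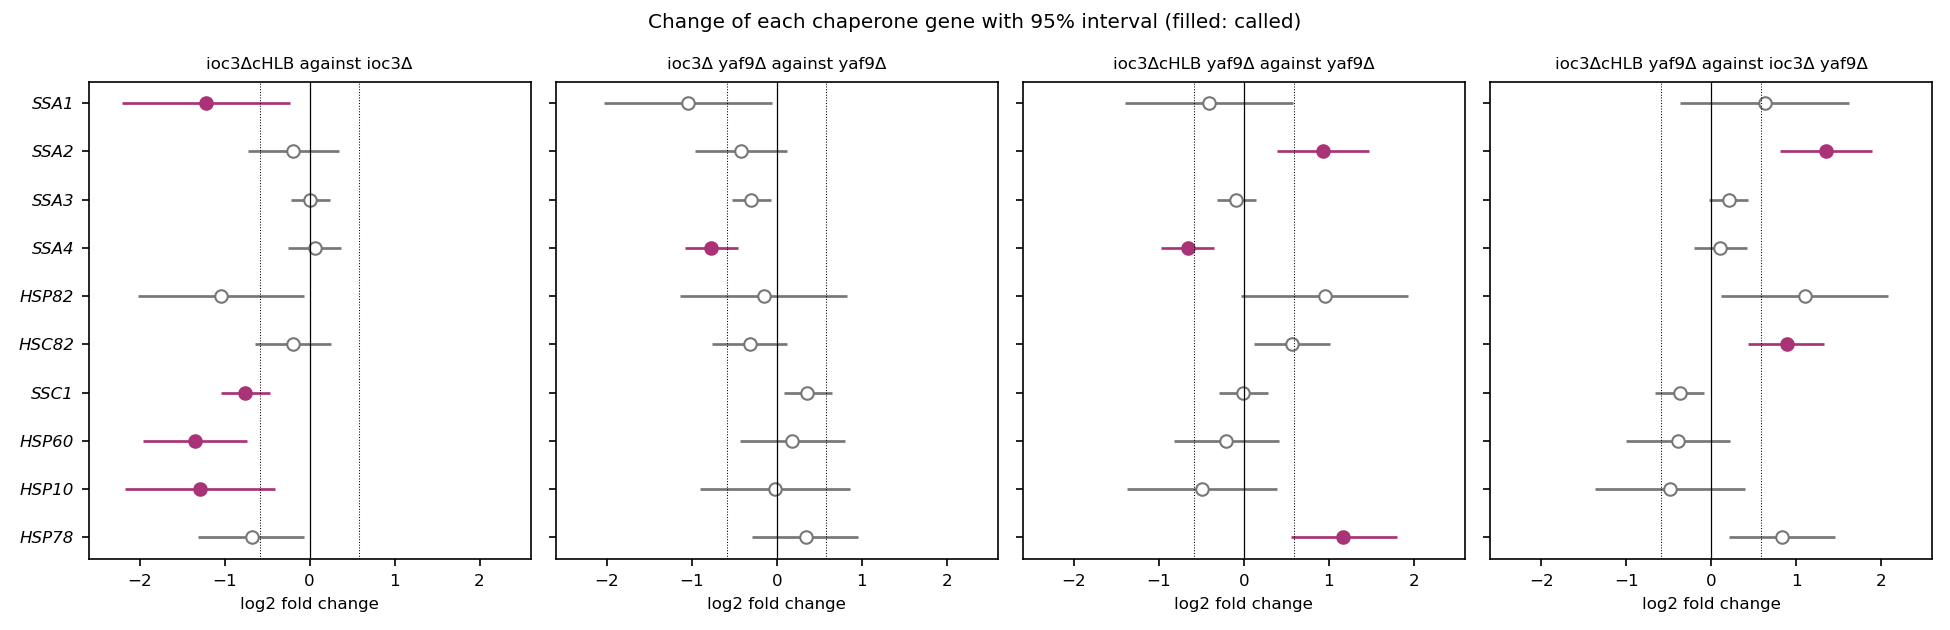
Log2 fold change (limma) of each chaperone gene in 4 comparisons, with its 95% interval, where filled points were called and dotted lines mark a 1.5-fold change. SSC1, HSP60 and HSP10 lie left of zero in ioc3ΔcHLB against ioc3Δ, and SSA2 and HSC82 lie right of zero in ioc3ΔcHLB yaf9Δ against ioc3Δ yaf9Δ.

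Among the cytosolic Hsp70 genes, SSA4 was lower in both double mutants than in yaf9Δ and wild type. SSA4 encodes a stress-inducible Ssa protein and had 22.1, 22.2 and 23.4 CPM in ioc3ΔcHLB yaf9Δ and 17.7, 21.4 and 24.1 CPM in ioc3Δ yaf9Δ, against 38.1, 35.7 and 35.0 CPM in yaf9Δ and 30.7, 36.9 and 38.4 CPM in wild type. All 6 double-mutant libraries were below all 6 yaf9Δ and wild type libraries. Relative to yaf9Δ, SSA4 fell by 0.77 on the log2 scale in ioc3Δ yaf9Δ (SE 0.15, adjusted p = 0.00307) and by 0.66 in ioc3ΔcHLB yaf9Δ (SE 0.15, adjusted p = 0.016). Relative to wild type it fell by 0.72 in ioc3Δ yaf9Δ (SE 0.15, adjusted p = 0.00295) and by 0.62 in ioc3ΔcHLB yaf9Δ (SE 0.15, adjusted p = 0.0111). The last of these came under the 1.5-fold limit without wild type replicate 2 (-0.58) or 3 (-0.56), as did the ioc3ΔcHLB yaf9Δ value against yaf9Δ with a pseudocount of 5 (-0.58).

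With Yaf9 present, SSA4 was not called in either IOC3 mutant. SSA4 had 38.9, 34.0 and 29.0 CPM in ioc3ΔcHLB and 26.2, 38.4 and 33.2 CPM in ioc3Δ, which overlapped the wild type range. Its log2 change against wild type was -0.06 in ioc3ΔcHLB (95% interval -0.37 to 0.25) and -0.12 in ioc3Δ (95% interval -0.43 to 0.19). The interaction of the IOC3 deletion with the YAF9 deletion, that is the change in ioc3Δ yaf9Δ against yaf9Δ minus the change in ioc3Δ against wild type, was -0.64 (SE 0.21, adjusted p = 0.0706). SSA4 was the only member called in that interaction, where 9.38% of all genes were called and 6.12% were called lower, and the call was lost in 8 of the 12 fits that each left out 1 library of these strains. For the cHLB truncation the same interaction was -0.60 (adjusted p = 0.493), and limma, edgeR and DESeq2 called 0 members in it, where limma called 0.121% of all genes. In that interaction 5 members had a limma unadjusted p under 0.05, as did 361 of 5786 genes tested. The 2 double mutants had close SSA4 values, with a log2 difference of 0.11 in ioc3ΔcHLB yaf9Δ against ioc3Δ yaf9Δ (95% interval -0.20 to 0.42).

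SSA3, the other stress-inducible Ssa gene, was at a similar level and was called in no comparison. It had 26.9, 26.6 and 29.2 CPM in ioc3Δ yaf9Δ, against 35.3, 33.3 and 33.7 CPM in yaf9Δ. These groups did not overlap, and the change of -0.30 (SE 0.11, adjusted p = 0.075) was under the 1.5-fold limit. In the remaining strains SSA3 lay between 28.0 and 37.3 CPM.

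SSA2, the most abundant Ssa gene in unstressed cells, separated the 2 double mutants. SSA2 had 2243.4, 3184.5 and 2792.1 CPM in ioc3ΔcHLB yaf9Δ, against 713.4, 1433.3 and 1179.4 CPM in ioc3Δ yaf9Δ. The lowest ioc3ΔcHLB yaf9Δ library was above the highest ioc3Δ yaf9Δ library, and the change of 1.35 (SE 0.26, adjusted p = 0.0122) was called in every fit that left out 1 library. In yaf9Δ SSA2 had 1454.6, 1530.4 and 1294.3 CPM, and in wild type 1863.1, 2065.4 and 1635.6 CPM, and the ioc3Δ yaf9Δ libraries overlapped the yaf9Δ ones (-0.42, adjusted p = 0.292). ioc3ΔcHLB yaf9Δ was higher than yaf9Δ by 0.93 (SE 0.26, adjusted p = 0.0496), a call lost without any 1 of the yaf9Δ libraries or without ioc3ΔcHLB yaf9Δ replicate 2 or 3 (adjusted p from 0.104 to 0.181). ioc3Δ yaf9Δ was lower than wild type by a log2 change of -0.79 (SE 0.26, adjusted p = 0.0403), which became -0.51 (adjusted p = 0.224) without ioc3Δ yaf9Δ replicate 1 and -0.71 (adjusted p = 0.121) without wild type replicate 2.

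SSA1 encodes the near-identical partner of Ssa2 and varied most between libraries. It had 155.5, 209.0 and 512.8 CPM in ioc3Δ yaf9Δ and 162.1, 319.5 and 890.9 CPM in ioc3Δ, where replicate 3 was the high library of each strain. Without ioc3Δ yaf9Δ replicate 3, SSA1 was called lower in ioc3Δ yaf9Δ than in yaf9Δ (-1.54, adjusted p = 0.0321) and in the interaction of the IOC3 and YAF9 deletions (-2.16, adjusted p = 0.0316). In ioc3ΔcHLB it had 121.1, 156.3 and 191.6 CPM, the lowest mean of any strain. In yaf9Δ it had 608.3, 501.5 and 481.6 CPM, against 210.3, 297.8 and 203.2 CPM in wild type. The yaf9Δ libraries did not overlap wild type, but the change of 1.17 (SE 0.47, adjusted p = 0.121) was not called with the spread shared by all strains. A fit to yaf9Δ and wild type alone called it (adjusted p = 0.00507). The change of -1.22 in ioc3ΔcHLB against ioc3Δ (SE 0.47, adjusted p = 0.0907) was called although the groups overlapped, and it became -0.56 (adjusted p = 0.421) without ioc3Δ replicate 3.

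Because reads of SSA1 and SSA2 can be hard to separate, the pair was also summed, an alternative chosen after seeing the data. The sum is unaffected by how reads that fit both genes were split between them. SSA1 plus SSA2 changed by 1.22 in ioc3ΔcHLB yaf9Δ against ioc3Δ yaf9Δ (SE 0.28, adjusted p = 0.0337) and was called in no other comparison. In yaf9Δ against wild type the sum changed by -0.09 (SE 0.28, adjusted p = 0.883), while SSA1 made up 29.5%, 24.7% and 27.1% of the sum in yaf9Δ, against 10.1%, 12.6% and 11.0% in wild type. In the other strains this share ran from 9.67% to 18.5% in ioc3ΔcHLB yaf9Δ, from 12.7% to 30.3% in ioc3Δ yaf9Δ, from 8.38% to 9.73% in ioc3ΔcHLB and from 11.2% to 27.4% in ioc3Δ.

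**Figure D3:**
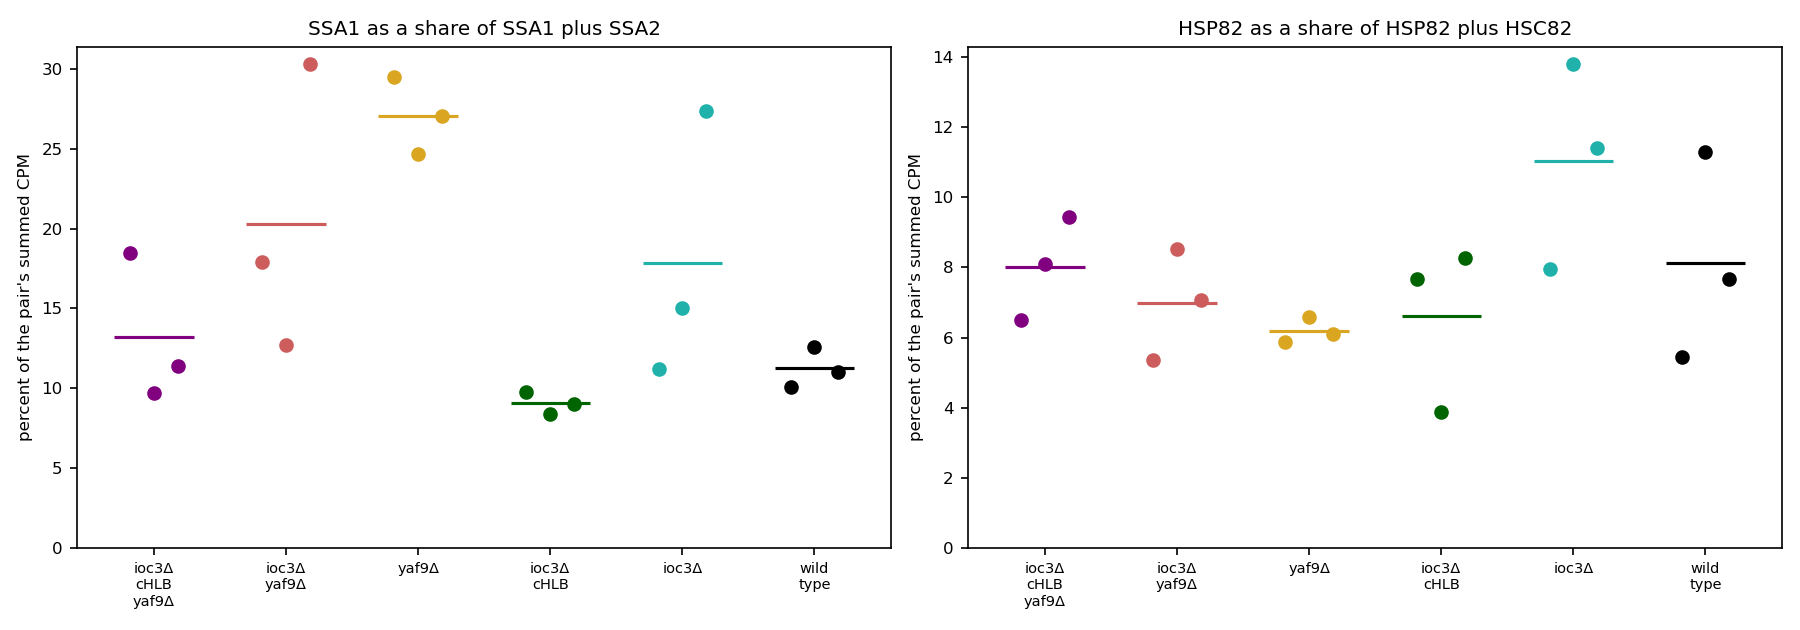
Share of SSA1 in the summed CPM of SSA1 and SSA2 (left) and of HSP82 in the summed CPM of HSP82 and HSC82 (right), in percent, with a point per library and a bar at the mean of the 3 libraries of a strain. The yaf9Δ libraries hold the SSA1 share between 24.7% and 29.5%, above all 3 wild type libraries, and the HSP82 share runs from 3.88% to 13.8% over all libraries.

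The constitutive cytosolic Hsp90 gene separated the double mutants as SSA2 did. HSC82 had 1770.1, 2356.5 and 2228.7 CPM in ioc3ΔcHLB yaf9Δ, against 889.3, 1524.5 and 1086.5 CPM in ioc3Δ yaf9Δ. The groups did not overlap, and HSC82 was higher in ioc3ΔcHLB yaf9Δ by 0.89 (SE 0.21, adjusted p = 0.039), a call lost without ioc3Δ yaf9Δ replicate 1 (0.71, adjusted p = 0.184) and without ioc3ΔcHLB yaf9Δ replicate 2 or 3. In yaf9Δ HSC82 had 1432.2, 1469.9 and 1359.6 CPM, against 1500.7, 1806.4 and 1593.9 CPM in wild type. The change of -0.20 there was not called (95% interval -0.64 to 0.25).

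HSP82 encodes the stress-inducible Hsp90, with a level well under that of HSC82. It had 122.9, 207.9 and 232.2 CPM in ioc3ΔcHLB yaf9Δ, against 50.4, 142.1 and 82.6 CPM in ioc3Δ yaf9Δ and 89.3, 103.7 and 88.4 CPM in yaf9Δ. Its change of 1.10 in ioc3ΔcHLB yaf9Δ against ioc3Δ yaf9Δ had a 95% interval of 0.12 to 2.08 and an adjusted p of 0.168. Wild type cultures alone ranged from 86.4 to 230.6 CPM and ioc3Δ cultures from 90.0 to 271.0 CPM. The main fit called HSP82 in no comparison. The replicate block called HSP82 in ioc3ΔcHLB against ioc3Δ (-1.04, adjusted p = 0.14 in the main fit). A fit to the compared strains alone called HSP82 in ioc3ΔcHLB yaf9Δ against yaf9Δ, groups that did not overlap (0.95, adjusted p = 0.262 in the main fit). Without ioc3ΔcHLB yaf9Δ replicate 1 its change between the double mutants was 1.38 (adjusted p = 0.0688). The sum of HSP82 and HSC82 changed by 0.90 in ioc3ΔcHLB yaf9Δ against ioc3Δ yaf9Δ (SE 0.23, adjusted p = 0.0441) and was called in no other comparison.

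Of the mitochondrial genes, SSC1 was lower in ioc3ΔcHLB than in ioc3Δ and higher in ioc3Δ yaf9Δ than in wild type. SSC1, the import-motor Hsp70, had 971.7, 857.7 and 899.3 CPM in ioc3ΔcHLB, against 1362.6, 1477.9 and 1801.8 CPM in ioc3Δ. The lower level in ioc3ΔcHLB, by a log2 change of -0.76 (SE 0.14, adjusted p = 0.00212), was called in every fit that left out 1 library. SSC1 had 1744.7, 1751.9 and 1859.2 CPM in ioc3Δ yaf9Δ, against 1504.0, 1306.0 and 1359.0 CPM in yaf9Δ and 1277.3, 871.8 and 1248.1 CPM in wild type. ioc3Δ yaf9Δ was higher than wild type by 0.68 (SE 0.14, adjusted p = 0.00276), which became 0.50, under the 1.5-fold limit, without wild type replicate 2. The change of 0.46 in ioc3Δ against wild type (adjusted p = 0.0259) was under that limit with all libraries. In ioc3ΔcHLB against wild type SSC1 changed by -0.30 (adjusted p = 0.835), which was not called, in groups that overlapped.

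HSP60 and HSP10, the chaperonin and its co-chaperonin, were also lower in ioc3ΔcHLB than in ioc3Δ. HSP60 had 510.1, 571.6 and 469.2 CPM in ioc3ΔcHLB, against 1198.7, 954.4 and 1980.2 CPM in ioc3Δ, a change of -1.35 (SE 0.29, adjusted p = 0.00578) that was called in every fit that left out 1 library. HSP10 had 281.0, 321.7 and 181.0 CPM in ioc3ΔcHLB, against 588.3, 399.8 and 1019.6 CPM in ioc3Δ, a change of -1.29 (SE 0.42, adjusted p = 0.0473). Neither pair of groups overlapped. The HSP10 call was lost without ioc3Δ replicate 3 (-0.93, adjusted p = 0.221) and without ioc3ΔcHLB replicate 3 (-1.04, adjusted p = 0.148). In ioc3ΔcHLB against wild type HSP60 changed by -0.43 and HSP10 by -0.46 (adjusted p = 0.999 for each). Neither was called, and the groups overlapped.

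HSP60 was called against wild type in both strains that lack IOC3, and each call was lost without 1 of several libraries. HSP10 was called against wild type only in some fits without 1 library. Wild type had 950.9, 438.6 and 801.1 CPM of HSP60 and 532.6, 176.2 and 456.6 CPM of HSP10, and replicate 2 was the lowest of all 18 libraries for both. HSP60 was higher than wild type by 0.92 in ioc3Δ (SE 0.29, adjusted p = 0.0357), and ioc3Δ yaf9Δ, with 1202.9, 1011.8 and 1880.5 CPM, also had a change of 0.92 (SE 0.29, adjusted p = 0.0355). Without wild type replicate 2 both changes became 0.59, with adjusted p-values of 0.161 and 0.178. They were lost also without replicate 3 of ioc3Δ (0.62, adjusted p = 0.174) or of ioc3Δ yaf9Δ (0.67, adjusted p = 0.143), and in fits to the compared strains alone (adjusted p of 0.105 and 0.106). In yaf9Δ, which keeps IOC3, HSP60 changed by 0.74 against wild type (adjusted p = 0.112) and HSP10 by 0.91 (adjusted p = 0.177). Neither was called in the main fit, although yaf9Δ and wild type did not overlap for either gene. DESeq2, the replicate block and a fit to these strains alone called HSP60 there. HSP10 changed against wild type by 0.83 in ioc3Δ (adjusted p = 0.176) and 0.89 in ioc3Δ yaf9Δ (adjusted p = 0.16). Without 1 library HSP10 ran from 0.33 to 1.14 in ioc3Δ, called without ioc3Δ replicate 2 (adjusted p = 0.0879). It ran from 0.40 to 1.19 in ioc3Δ yaf9Δ and from 0.42 to 1.21 in yaf9Δ. Both were called without wild type replicate 1 (adjusted p of 0.0915 and 0.0964). In ioc3Δ yaf9Δ against yaf9Δ the changes were 0.18 for HSP60 and -0.02 for HSP10. The ratio of HSP60 to HSP10 in CPM stayed between 1.66 and 2.59 over the 18 libraries.

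HSP78, the mitochondrial disaggregase, had its highest mean in ioc3ΔcHLB yaf9Δ. It had 66.2, 69.9 and 69.7 CPM there, against 33.0, 28.7 and 28.1 CPM in yaf9Δ. The groups did not overlap, and the change was 1.17 (SE 0.30, adjusted p = 0.0333), with the call lost without yaf9Δ replicate 2 or 3 (adjusted p of 0.103 and 0.12). In wild type HSP78 had 23.9, 55.6 and 34.6 CPM, and ioc3ΔcHLB yaf9Δ was higher by 0.92 (SE 0.30, adjusted p = 0.0496). Without wild type replicate 1 this change was 0.63 (adjusted p = 0.189), and the call was also lost without wild type replicate 3 or ioc3ΔcHLB yaf9Δ replicate 2 or 3. Between the double mutants the HSP78 change of 0.84 (adjusted p = 0.108) was not called in the main fit, although the groups did not overlap. It was called with the replicate block and without ioc3Δ yaf9Δ replicate 3 (1.13, adjusted p = 0.0467) or ioc3ΔcHLB yaf9Δ replicate 1 (0.86, adjusted p = 0.0865). HSP78 had 38.8, 76.3 and 68.6 CPM in ioc3Δ, and its change of 0.70 against wild type (adjusted p = 0.108) passed with the replicate block (adjusted p = 0.0857), with DESeq2 (adjusted p = 0.0874) and without wild type replicate 2 (1.01, adjusted p = 0.0327).

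The highest correlations across the libraries joined SSC1, HSP60 and HSP10, and SSA2, HSC82 and HSP82. HSP78 did not follow its compartment. SSA1 was nearer to HSP60 than to SSA2 over the libraries, but nearer to SSA2 within strains. HSP60 and HSP10 had a Pearson correlation of log2(CPM + 1) of 0.96 over the 18 libraries, and 0.96 again after the mean of each strain was taken out. SSC1 went with HSP60 (0.91, and 0.79 within strains) and with HSP10 (0.82, and 0.73 within strains). SSA2 went with HSC82 (0.93, and 0.88 within strains), and HSP82 with HSC82 (0.83, and 0.88 within strains). HSC82 and HSP60 gave -0.11. Mitochondrial HSP78 went with cytosolic HSP82 (0.78, and 0.76 within strains) and had 0.17 with SSC1, 0.13 with HSP60 and -0.05 with HSP10. Cytosolic SSA1 had 0.64 with HSP60 (0.49 within strains), against 0.37 with SSA2 (0.61 within strains). These values share the libraries, their depth and the 6 strains, and they are a description only.

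**Figure D4:**
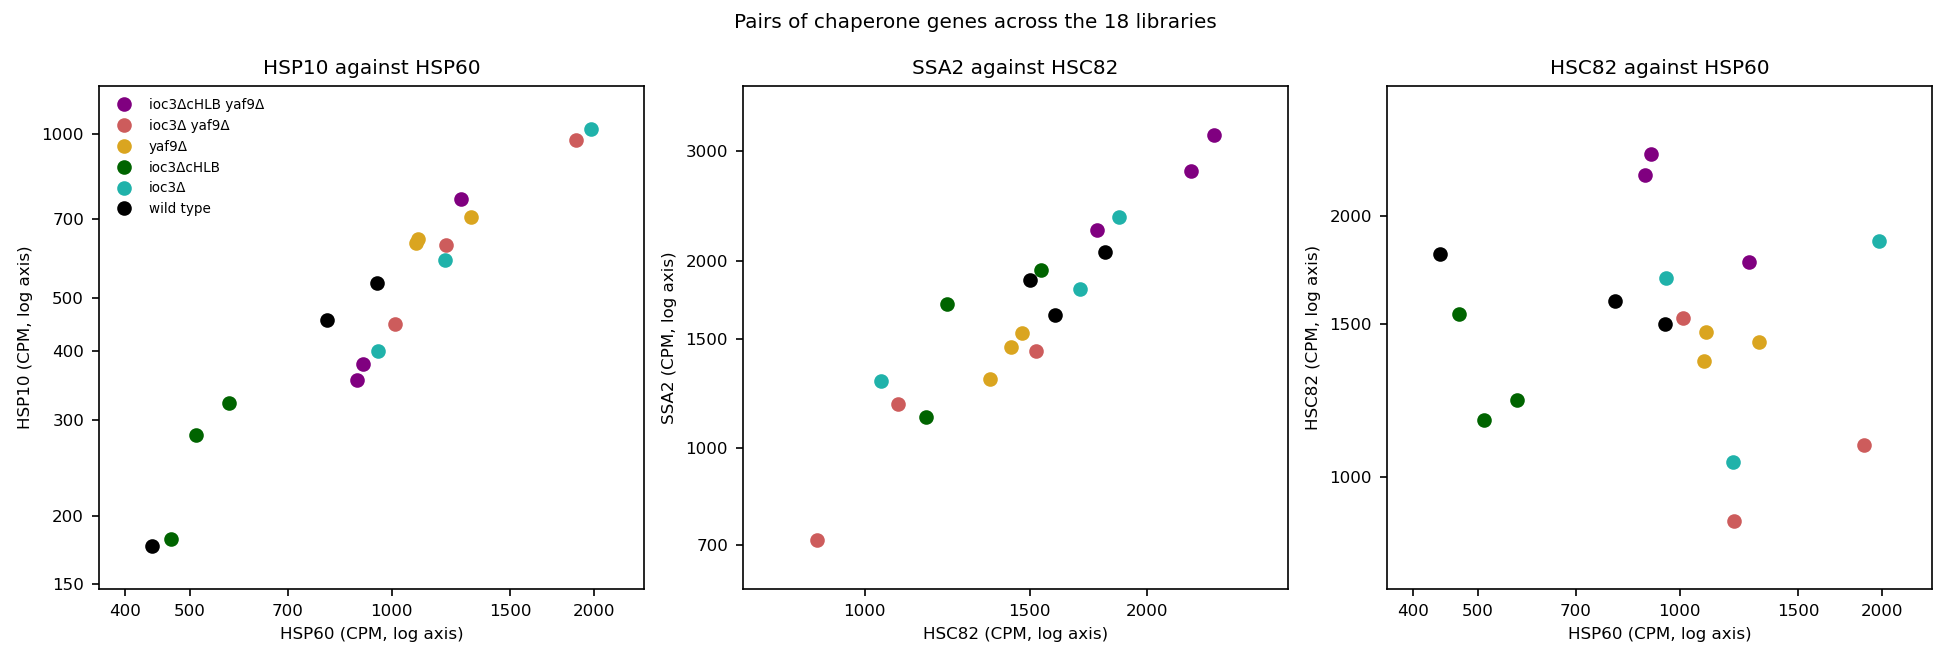
CPM of HSP10 against HSP60 (left), SSA2 against HSC82 (middle) and HSC82 against HSP60 (right) on log axes, with a point per library coloured by strain. The points of the first 2 panels lie along a line, with correlations of 0.96 and 0.93 over 18 libraries, and those of the third do not, with a correlation of -0.11.

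Other genes with the nearest patterns were looked up among 5255 genes with a mean of at least 5 CPM, by the same correlation over 18 libraries. For HSP82 these were BTN2 (0.895), OPI10 (0.892), YPI1 (0.885), SIS1 (0.863) and STI1 (0.858), of which SIS1 encodes an Hsp40 and STI1 the adaptor between Hsp70 and Hsp90. For HSP60 they were MRPS12 (0.968), COQ6 (0.961), COX17 (0.956), COA1 (0.956) and GRX5 (0.953). MRPS12 encodes a mitochondrial ribosomal protein, COQ6 a ubiquinone biosynthesis enzyme, COX17 and COA1 factors for cytochrome c oxidase assembly, and GRX5 a mitochondrial glutaredoxin. For HSP78 they were HSP104 (0.788), CPR6 (0.771), PRM15 (0.761), OPI10 (0.733) and AHA1 (0.729), and for SSA4 they were MEF2 (0.867), THO1 (0.856), YJL107C (0.849), MET16 (0.829) and GTB1 (0.828).

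The partners of the mitochondrial chaperones included called genes in both comparisons of the IOC3 alleles. Of 14 partner genes, 6 were called in ioc3ΔcHLB against ioc3Δ, all lower, where 9.99% of all genes were called and 7.57% were called lower, and their list had a median of -0.54, against -0.01 over all genes tested. Each call among partners below was refitted without each library of the compared strains in turn, which gave 6 fits for a pair of strains and 12 for an interaction. Of 61 such calls over all partner lists 19 were kept in all of these fits and 42 were lost in at least 1. The largest changes were those of PIM1 (-0.81, adjusted p = 0.00313), the Lon protease of the matrix, JAC1 (-0.80, adjusted p = 0.0431), the J protein of iron-sulfur cluster assembly, and PAM16 (-0.70, adjusted p = 0.013), a subunit of the import motor. The PIM1 call was kept in all 6 fits. JAC1 became -0.49 (adjusted p = 0.18) without ioc3ΔcHLB replicate 3 and was lost also without ioc3Δ replicate 3 (-0.80, adjusted p = 0.112), and PAM16 became -0.56, under the 1.5-fold limit, without ioc3ΔcHLB replicate 3. In ioc3ΔcHLB yaf9Δ against ioc3Δ yaf9Δ 4 of 14 were called, again all lower, where 4.8% of all genes were called, 160 of 5786 lower, and the list had a median of -0.28. PAM18 (-0.70, adjusted p = 0.0632), PAM16 (-0.69, adjusted p = 0.0442) and TIM44 (-0.65, adjusted p = 0.0308), all parts of the import motor, were lost in 4, 3 and 3 of 6 fits. MDJ1, the J protein that works with Ssc1, had 90.0 ± 29.2 CPM in ioc3ΔcHLB and 141.4 ± 42.8 CPM in ioc3Δ (SD, n = 3 each), a change of -0.65 (limma adjusted p = 0.0937) in groups that overlapped, lost in 4 of 6 fits. MGE1, its nucleotide exchange factor, had 228.9 ± 26.2 CPM in ioc3ΔcHLB and 327.0 ± 7.61 CPM in ioc3Δ (SD, n = 3 each), a change of -0.52 (limma adjusted p = 0.00913) that was under the 1.5-fold limit.

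Relative to wild type, 3 of 14 mitochondrial partners were called higher in ioc3Δ yaf9Δ, PAM18 (1.07, adjusted p = 0.00207), TCM62 (1.01, adjusted p = 0.000213) and PAM16 (0.73, adjusted p = 0.0074), where 12.3% of all genes were called, 344 of 5786 higher. PAM18 and TCM62 were kept in all 6 fits, and PAM16 became 0.51 without wild type replicate 2. In ioc3Δ 2 of 14 were called higher, a share near the 12.2% called over all genes, JAC1 (0.93, adjusted p = 0.0183), kept in all 6 fits, and ECM10 (0.61, adjusted p = 0.0123), under the 1.5-fold limit without ioc3Δ replicate 3 (0.56) or wild type replicate 1 (0.51). In ioc3ΔcHLB yaf9Δ 1 was called, MDJ2 (0.60, adjusted p = 0.0719, lost in 4 of 6 fits). In ioc3ΔcHLB none was, with 0 by edgeR and DESeq2 and 0 at a limma unadjusted p under 0.05, where 330 of 5786 genes had one. PAM18 is the J protein of the import motor and TCM62 encodes a chaperonin-like protein needed for succinate dehydrogenase assembly. ECM10 encodes a paralog of Ssc1, and whether reads of these 2 genes were told apart was not tested. In ioc3Δ yaf9Δ against yaf9Δ 3 of 14 were called higher, where 9.7% of all genes were called, JAC1 (0.72, adjusted p = 0.0675), PAM18 (0.70, adjusted p = 0.0328) and PAM16 (0.62, adjusted p = 0.0273), lost in 6, 1 and 2 of 6 fits. In the interaction of the IOC3 and YAF9 deletions 1 was called, ECM10 (-0.60, adjusted p = 0.0985, lost in 10 of 12 fits).

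Partners of the cytosolic chaperones showed few calls in each comparison. Among 12 Hsp90 cochaperones, 2 were called in ioc3ΔcHLB yaf9Δ against ioc3Δ yaf9Δ, AHA1 (0.87, adjusted p = 0.00411), which stimulates the Hsp90 ATPase, and CPR6 (0.64, adjusted p = 0.0432), a cyclophilin, where 4.8% of all genes were called and 2.04% were called higher. AHA1 was also called higher in ioc3ΔcHLB yaf9Δ than in yaf9Δ (0.65, adjusted p = 0.0156) and wild type (0.73, adjusted p = 0.00408). Its calls between the double mutants and against wild type were kept in all 6 fits, that against yaf9Δ became 0.58 without ioc3ΔcHLB yaf9Δ replicate 1, and the CPR6 call was lost in 3 of 6 fits. PIH1, part of the R2TP complex, was called lower relative to wild type in ioc3ΔcHLB yaf9Δ (-0.81, adjusted p = 0.0055), ioc3Δ yaf9Δ (-0.71, adjusted p = 0.00786) and yaf9Δ (-0.68, adjusted p = 0.0194), with 11.7 CPM in ioc3ΔcHLB yaf9Δ, 12.5 CPM in ioc3Δ yaf9Δ and 12.7 CPM in yaf9Δ, against 20.9 CPM in wild type, and each call was kept in all 6 fits. Among 12 cytosolic Hsp40 and exchange factor genes, SSE2, an Hsp110 exchange factor, was the only one called in ioc3Δ against wild type, at 39.1 CPM in ioc3Δ and 19.4 CPM in wild type (0.97, adjusted p = 0.0017), where 12.2% of all genes were called. XDJ1, a J protein gene of the same list, was higher in ioc3Δ yaf9Δ than in wild type (0.89, adjusted p = 0.00576) and lower in ioc3ΔcHLB than in ioc3Δ (-0.86, adjusted p = 0.00957), both kept in all 6 fits, as SSE2 was. XDJ1 was also lower in ioc3ΔcHLB yaf9Δ than in ioc3Δ yaf9Δ (-0.71, adjusted p = 0.0598, lost in 4 of 6 fits), and DJP1, another J protein gene, was higher in ioc3Δ yaf9Δ than in wild type (0.63, adjusted p = 0.00294), which became 0.52 without wild type replicate 2. The interaction of the IOC3 and YAF9 deletions called SSE2 (-0.79, adjusted p = 0.0638, lost in 5 of 12 fits) and JJJ1 (0.59, adjusted p = 0.0817, lost in 9 of 12 fits). YDJ1, the main Hsp40 partner of the Ssa proteins, averaged from 541.3 CPM in ioc3Δ to 713.6 CPM in ioc3ΔcHLB yaf9Δ and was called in no comparison. STI1 had 237.7 ± 34.2 CPM in ioc3ΔcHLB yaf9Δ and 139.6 ± 6.99 CPM in yaf9Δ (SD, n = 3 each), a change of 0.75 that was not called (limma adjusted p = 0.163).

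The list of 6 disaggregase and small heat shock protein genes also held HSP30 and HSP31, which encode proteins of other kinds. Of these 6, limma called 2 in ioc3ΔcHLB yaf9Δ against yaf9Δ, HSP104 higher and HSP26 lower. There edgeR called 3 and DESeq2 4, where limma called 4.63% of all genes. HSP104, the cytosolic disaggregase, had 145.2 ± 33.2 CPM in ioc3ΔcHLB yaf9Δ and 52.8 ± 3.84 CPM in yaf9Δ (SD, n = 3 each), a change of 1.42 (limma adjusted p = 0.0651, lost in 5 of 6 fits). HSP26, a small heat shock protein gene, had 12.6 ± 8.63 CPM in ioc3ΔcHLB yaf9Δ, 21.7 ± 29.1 CPM in ioc3Δ yaf9Δ and 109.0 ± 41.2 CPM in yaf9Δ (SD, n = 3 each), with limma changes of -3.12 (adjusted p = 0.0614) and -3.07 (adjusted p = 0.0346) relative to yaf9Δ, lost in 5 and 3 of 6 fits. It had 14.2 ± 5.68 CPM in wild type, so that yaf9Δ itself was higher by 2.87 (adjusted p = 0.0533, lost in 4 of 6 fits). HSP12, another small heat shock protein gene, had 19.6 to 108.2 CPM in ioc3ΔcHLB yaf9Δ and 13.4 to 415.8 CPM in ioc3Δ yaf9Δ, against 1042.4 to 1428.3 CPM in yaf9Δ. These groups did not overlap. The limma change relative to yaf9Δ was -5.03 (adjusted p = 0.105) in ioc3ΔcHLB yaf9Δ and -4.10 (adjusted p = 0.115) in ioc3Δ yaf9Δ, and of limma, edgeR and DESeq2 only DESeq2 called HSP12, in ioc3ΔcHLB yaf9Δ against yaf9Δ (-4.60, adjusted p = 0.0354). In wild type it ranged from 6.79 to 451.5 CPM.

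Relative to wild type 3 of the 6 were called higher in ioc3ΔcHLB yaf9Δ, where 8.87% of all genes were called. HSP30, which encodes a plasma membrane protein, changed by 1.71 (adjusted p = 0.0282). It ranged from 7.27 to 48.7 CPM in ioc3ΔcHLB yaf9Δ and from 2.3 to 6.15 CPM in wild type. The HSP30 change ran from 0.88 to 2.17 without 1 library. Its call was lost without wild type replicate 3 (adjusted p = 0.119) and in a fit to the compared strains alone. HSP42, a small heat shock protein gene, changed by 1.49 (adjusted p = 0.0853), lost in 4 of 6 fits and with edgeR and DESeq2. HSP31, which encodes a protein of the DJ-1 family, changed by 0.98 (adjusted p = 0.00636) there, by 0.84 (adjusted p = 0.0107) in ioc3Δ yaf9Δ and by 1.39 (adjusted p = 0.000668) in yaf9Δ, each kept in all 6 fits, and by -0.90 in the interaction of the IOC3 and YAF9 deletions (adjusted p = 0.0777, lost in 8 of 12 fits). HSF1, which encodes the heat shock factor, averaged 58.0 CPM in ioc3ΔcHLB yaf9Δ, 54.1 CPM in ioc3Δ yaf9Δ, 46.9 CPM in yaf9Δ, 44.9 in ioc3ΔcHLB, 47.1 in ioc3Δ and 43.7 in wild type.

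Neither HSF1 nor MSN2 nor MSN4 was called by limma, edgeR or DESeq2 in any of the 11 comparisons, with at most 1 of them at an unadjusted p under 0.05. The CCT chaperonin, which folds actin and tubulin in the cytosol, gave 0 calls among its 8 genes in all 11 comparisons by the same tools, with 0 to 6 genes at an unadjusted p under 0.05. Over all genes tested, 330 to 1944 of 5786 had a limma unadjusted p under 0.05 in these comparisons. Its medians lay between -0.22 and 0.26. Of 7 ribosome-associated chaperone genes, ZUO1, the J protein of the ribosome-associated complex, was called in ioc3Δ yaf9Δ against yaf9Δ, at 1023.8 CPM in ioc3Δ yaf9Δ and 665.9 CPM in yaf9Δ (0.60, adjusted p = 0.0135, lost in 3 of 6 fits), where 9.7% of all genes were called. In the interaction of the IOC3 and YAF9 deletions 3 of the 7 were called higher, where 9.38% of all genes were called, 189 of 5786 higher. ZUO1 changed by 0.93 (adjusted p = 0.0212), kept in all 12 fits, and SSZ1 (0.66, adjusted p = 0.025), its Hsp70 partner, and EGD2 (0.65, adjusted p = 0.0322), a subunit of the nascent polypeptide-associated complex, were each lost in 3 of 12 fits. BTT1, another gene of that complex, was lower in yaf9Δ than in wild type (-0.66, adjusted p = 0.0324), lost without yaf9Δ replicate 1 (-0.62, adjusted p = 0.118) and under the 1.5-fold limit without wild type replicate 1 (-0.55).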

How the data were processed

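RNA was measured in 18 libraries, 6 strains with 3 cultures each, prepared as stranded mRNA libraries and sequenced as 76-base paired ends. Per the labels and the study's methods, the authors counted reads per gene with HTSeq after mapping against sacCer3. The submitters' processing notes name TopHat2 2.0.10, Bowtie2 2.0, R 3.1.0, edgeR 3.6.2 and limma 3.20.4. The authors deposited a signal per gene, edgeR CPM scaled to the effective library size, neither logged nor pooled, for 5830 genes. A further 4 lines of the table are not analysed here, and 5634 names matched the reference annotation while 196 did not. How reads fitting several genes and the read strand were treated in counting is not given in the sources used here.

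The CPM values were whole multiples of 1 read (within 0.01 reads) for 100% of values, which gave the read counts. One read was worth 0.0854 to 0.2011 CPM, and precision statements from reads cover counting error only. Genes that reached 1 CPM in 3 or more libraries (5786 of them) were tested as log2(CPM + 1) with limma 3.58.1 (R 4.3.3), with a mean-variance trend and 1 fit over all strains. The fit gave 11 comparisons, 2 of them interactions, each adjusted by Benjamini-Hochberg over all genes, and calls needed an adjusted p under 0.1 and a 1.5-fold change, the limits of the study. The code was tested on simulated data. On the recovered reads edgeR 4.0.16 called from 0 to 747 genes per comparison and DESeq2 1.42.0 from 30 to 741, against 7 to 713 by limma. Also tried were all genes without the filter, a pseudocount of 0.25 or 5, scaling by the median of ratios, fits to the compared strains alone, a replicate block, an adjusted p under 0.05, leaving out each library, leaving out wild type 2 with ioc3ΔcHLB 3, and, chosen after seeing the data, summing near-identical pairs.

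Replicate numbers come from the labels. Same-numbered ioc3Δ and wild type cultures deviated together (correlations of 0.206, 0.212 and 0.11 over genes). At least 1 ioc3Δ culture correlated as well or better with a wild type culture of another number. The main fit does not pair cultures. A fit with the replicate number as a block, which treats same-numbered cultures of all strains as paired, is given beside it. In the other comparisons of 2 strains at least 1 correlation was 0.1 or lower. All 10 members are described. Of each partner list at most 3 called genes per comparison are named, plus HSF1, HSP104, HSP26, HSP12, YDJ1, STI1, MGE1 and MDJ1, and for HSP82, SSA4, HSP60 and HSP78 the 5 genes with the nearest patterns. The members and lists were chosen with earlier results of these data known.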

Additional observations from a re-analysis of the deposited data

Results flagged for a closer look

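SSA4 was set apart by a test of whether the effect of deleting IOC3 differs with and without Yaf9. The interaction was -0.64 on the log2 scale (SE 0.21, limma adjusted p = 0.0706). The call was lost in most of the 12 fits that each left out 1 library of these strains. It was lost also with a pseudocount of 5 and at an adjusted p under 0.05. In this interaction 9.38% of all genes were called. SSA4 averaged 21.0 CPM in ioc3Δ yaf9Δ and 36.3 CPM in yaf9Δ, and 32.6 CPM in ioc3Δ and 35.3 CPM in wild type.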

How the results depend on the processing

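Over 11 comparisons of 10 genes, 18 of 110 results were called. Their 293 values under other settings kept their direction, and 54 lost the call, 37 of them among 114 fits without 1 library. Calls held under every setting for SSA4 in ioc3Δ yaf9Δ against yaf9Δ and against wild type, for HSP60 and SSC1 in ioc3ΔcHLB against ioc3Δ and for SSA2 in ioc3ΔcHLB yaf9Δ against ioc3Δ yaf9Δ, 5 results in all. Why the others changed was not tested. Over all genes, limma called 20 in ioc3ΔcHLB against wild type and DESeq2 45, and in the interaction of the cHLB truncation with the YAF9 deletion limma called 7, edgeR 0 and DESeq2 30. Depth limits SSA4 most, with 110 reads in its lowest library.

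The number of members called, with its range without 1 library, was 1 (0 to 3) in ioc3Δ against wild type, 0 (0 to 2) in yaf9Δ against wild type, 1 (1 to 2) in ioc3Δ yaf9Δ against yaf9Δ, 3 (1 to 4) in ioc3ΔcHLB yaf9Δ against yaf9Δ, 4 (1 to 5) in ioc3Δ yaf9Δ against wild type, 2 (0 to 3) in ioc3ΔcHLB yaf9Δ against wild type, 4 (2 to 6) in ioc3ΔcHLB against ioc3Δ, 2 (1 to 4) in ioc3ΔcHLB yaf9Δ against ioc3Δ yaf9Δ and 1 (0 to 2) in the interaction of the IOC3 and YAF9 deletions. Fits to the compared strains alone gave 0 in ioc3Δ against wild type, 2 in yaf9Δ against wild type and 2 in ioc3Δ yaf9Δ against yaf9Δ. DESeq2 gave 2 in ioc3Δ and 1 in yaf9Δ, each against wild type. Leaving out wild type 2 and ioc3ΔcHLB 3 gave 1 in ioc3Δ yaf9Δ and 1 in ioc3ΔcHLB yaf9Δ, each against wild type. A pseudocount of 5 gave 1 in ioc3ΔcHLB yaf9Δ against wild type and 0 in the IOC3 interaction, and an adjusted p under 0.05 also gave 0 there. The replicate block gave 2 in ioc3Δ against wild type and 2 in yaf9Δ against wild type, where numbers do not pair the cultures. In all it lost 0 calls and gained 5, HSP78 in ioc3Δ against wild type, HSP60 and SSA1 in yaf9Δ against wild type, HSP82 in ioc3ΔcHLB against ioc3Δ and HSP78 in ioc3ΔcHLB yaf9Δ against ioc3Δ yaf9Δ.

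Some uncalled values changed sign. SSA4 in ioc3ΔcHLB against wild type went to 0.08 without wild type 2 and ioc3ΔcHLB 3. In yaf9Δ against wild type SSA1 itself kept its sign, from 1.07 to 1.35 without 1 library. The sum of SSA1 and SSA2 changed there by -0.09. Without 1 library, SSA1 in ioc3Δ against wild type ran from -0.04 to 1.19. SSA4 ran from -0.25 to 0.02 in ioc3Δ, from -0.16 to 0.05 in ioc3ΔcHLB and from -0.05 to 0.10 in yaf9Δ, each against wild type, from -0.08 to 0.19 in ioc3ΔcHLB against ioc3Δ and from -0.01 to 0.20 in ioc3ΔcHLB yaf9Δ against ioc3Δ yaf9Δ.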

Other observations

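Chaperones of the endoplasmic reticulum, which fold secreted proteins, are not among the 10 genes. In ioc3ΔcHLB yaf9Δ against ioc3Δ yaf9Δ, 4 of 9 such genes were called, all higher, where 4.8% of all genes were called and 2.04% were called higher, and the list had a median log2 change of 0.57, against 0.00 over all genes tested. KAR2, the Hsp70 of this compartment, averaged 1190.9 CPM in ioc3ΔcHLB yaf9Δ and 564.4 CPM in ioc3Δ yaf9Δ, a change of 1.05 (SE 0.22, limma adjusted p = 0.023), lost in 3 of the 6 fits that each left out 1 library. LHS1, its exchange factor, changed by 0.72 (SE 0.11, limma adjusted p = 0.00235), kept in all 6 fits, and PDI1, the disulfide isomerase, by 0.73 (SE 0.19, limma adjusted p = 0.0535), lost in 4 of 6. In ioc3Δ yaf9Δ against yaf9Δ 4 of the 9 were called, all lower, where 9.7% of all genes were called and 6.17% were called lower, with a median of -0.49 and KAR2 at -0.79 (limma adjusted p = 0.0268), PDI1 at -0.70 (limma adjusted p = 0.0254) and LHS1 at -0.66 (limma adjusted p = 0.00113). The LHS1 call was kept in all 6 fits, and those of KAR2 and PDI1 were lost without yaf9Δ replicate 1 (-0.71 and -0.66) or ioc3Δ yaf9Δ replicate 1 (-0.64 and -0.62). Relative to wild type 2 of the 9 were called higher in ioc3ΔcHLB yaf9Δ and 2 in yaf9Δ, KAR2 and PDI1 in both, where 8.87% and 7.52% of all genes were called. In ioc3ΔcHLB yaf9Δ the KAR2 call was kept in all 6 fits and that of PDI1 lost in 3, and in yaf9Δ they were lost in 5 and 4 of 6. In ioc3ΔcHLB yaf9Δ against yaf9Δ limma, edgeR and DESeq2 called 0 of the 9, with 0 at a limma unadjusted p under 0.05, where 1166 of 5786 genes had one.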
